A study of Mus musculus with 15 samples.

Results

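Leukaemic spleens in which the periostin gene Postn gave a high array signal were set against those in which it gave a low one. The groups were chosen by the log2 value of Postn itself, the median over its 25 probesets, with a threshold that lay between 8.44 and 7.05. It put 7 tumours above and 8 below, and these 15 were all the tumours measured. The 7 Postn-high tumours were tumor_31, tumor_9523, tumor_9509, tumor_9492, tumor_29, tumor_33 and tumor_9529. The 8 Postn-low tumours were tumor_9504, tumor_9495, tumor_9500, tumor_36, tumor_26, tumor_9514, tumor_9520 and tumor_9508. The mice were of the Bl/6 Taconic strain, and the spleens carried acute promyelocytic leukaemia (APL), in which neutrophil precursors fail to mature past the promyelocyte stage. The labels put all 15 in 1 group and gave no allele, treatment, age or sex, and no healthy spleen was analysed here, so the division rests on the Postn signal alone and is not one the study made. Nor did the labels say that the tumours were from separate animals, so a p-value here measures the spread between these arrays, which may be technical.

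Each array reads a gene through several probesets, most of them in single exons, and a gene value is the median log2 intensity of its probesets. A gene counted as detected above a limit of 6.41 for its mean over the 15 tumours, set at the 40th percentile of the genes with a name. Folds are left out where a group mean lies below this limit, since such signals cannot be told from background. A log2 difference given there is one between array signals, and the size of the difference in RNA is not known from it. Median intensities per array lay between 108 and 129. The arrays of tumor_9509 (Postn-high) and tumor_9514 (Postn-low) stood apart, correlating with each other at 0.949 over detected genes and with the other arrays at a median of 0.891 and 0.884. Several results that rest on them are given with and without them. The enzymes of promyelocyte granules were bright in both groups, with Mpo (myeloperoxidase) at 12.93 ± 0.26 (SD, n = 7) in Postn-high and 12.90 ± 0.30 (SD, n = 8) in Postn-low tumours.

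Periostin is a secreted protein of the extracellular matrix with fasciclin domains. It binds collagens, fibronectin and tenascin, signals to cells through alpha-v integrins, and is made mainly by fibroblasts and bone-forming cells. Transforming growth factor beta and the cytokines of type 2 immunity raise its transcription, and it is known for its place in wound repair, allergic inflammation and the niches of stem and tumour cells.

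Postn lies on chromosome 3. Its value was 10.83 in tumor_9523, 10.55 in tumor_9492, 10.43 in tumor_9509, 10.26 in tumor_29, 10.18 in tumor_9529, 9.16 in tumor_31 and 8.44 in tumor_33. It was 7.05 in tumor_9514, 7.03 in tumor_9495, 6.10 in tumor_26, 5.53 in tumor_36, 5.27 in tumor_9504, 5.04 in tumor_9508, 4.99 in tumor_9500 and 4.32 in tumor_9520. Just inside the threshold stood tumor_33, and just outside it tumor_9514 and tumor_9495, the only Postn-low tumours above the detection limit. The group means were 9.98 ± 0.86 (SD, n = 7) and 5.67 ± 0.99 (SD, n = 8). These values chose the groups and are a description, with no test. In 24 of the 25 probesets every Postn-high tumour exceeded every Postn-low tumour, which the choice of groups by their median favours. The exception was probeset 4858632, with means of 7.96 and 6.49.

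**Figure D1:**
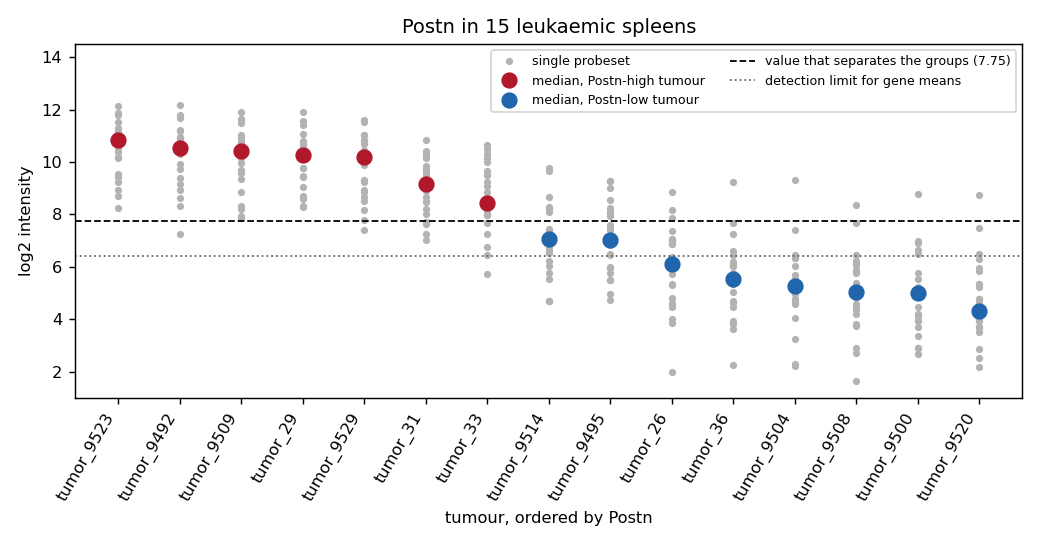
Log2 intensity of Postn in each tumour, ordered by its gene value, with the 25 probesets as grey points and their median as a coloured point. The medians run from 10.83 in tumor_9523 to 4.32 in tumor_9520, and the dashed line, the threshold, lies in the interval between 8.44 and 7.05.

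The promoters of 3 genes are shown: Postn, which set the groups, Gal, which had the largest difference in signal of the named genes, and Serpina3g, which ran in the same direction as Gal. Each is the 250 bases upstream of a RefSeq transcription start (GRCm38.p6), 5′ to 3′ on the gene's strand, and capitals mark a match to a searched motif. They lie at chr3:54360857-54361106 (+), the second of 2 RefSeq starts of Postn, at chr19:3414545-3414794 (-) for Gal and at chr12:104235897-104236146 (+) for Serpina3g.
Postn: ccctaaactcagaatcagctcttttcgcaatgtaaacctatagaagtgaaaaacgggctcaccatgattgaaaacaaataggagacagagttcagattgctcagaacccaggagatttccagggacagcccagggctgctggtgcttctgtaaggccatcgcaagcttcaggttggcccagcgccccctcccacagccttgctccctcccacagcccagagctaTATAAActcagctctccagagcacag
Gal: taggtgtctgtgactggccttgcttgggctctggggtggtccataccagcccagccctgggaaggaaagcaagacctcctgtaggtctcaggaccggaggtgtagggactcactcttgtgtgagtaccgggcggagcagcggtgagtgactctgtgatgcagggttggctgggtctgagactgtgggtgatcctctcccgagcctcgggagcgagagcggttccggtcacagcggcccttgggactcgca
Serpina3g: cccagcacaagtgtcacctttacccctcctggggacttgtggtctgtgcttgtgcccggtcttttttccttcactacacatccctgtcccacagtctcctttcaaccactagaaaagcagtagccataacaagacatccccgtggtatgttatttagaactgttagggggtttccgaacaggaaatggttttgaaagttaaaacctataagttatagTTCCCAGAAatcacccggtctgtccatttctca

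The motifs searched, on both strands, were the TATA box TATAAA, the STAT palindrome TTCNNNGAA, the E-box CACGTG, the CRE half-site TGACG and the ETS core GGAAGT. In the Postn promoter the match was TATAAA, 26 to 21 bases before the start. In the Serpina3g promoter it was TTCCCAGAA, 33 to 25 bases before the start. The Gal window held none of the 5 motifs. Of 32851 promoter windows of this length, 12.4% held TATAAA, 7.02% TTCNNNGAA, 6.02% CACGTG, 17.8% TGACG and 19.7% GGAAGT. A match is a property of the letters and not evidence of a bound factor.

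Which other genes differed between the groups was asked of 9778 detected genes with limma and Benjamini-Hochberg adjustment, Postn being left out. At an adjusted p under 0.05, 0 genes were higher (0%) and 0 lower (0%) in Postn-high tumours. The lowest adjusted p was 0.0512, and 5 genes lay under 0.1, all of them lower in Postn-high tumours: Nrg4, Gal, Rnase2a, Tfec and Chn2. At an unadjusted p under 0.05 there were 647 genes (6.62%), of which 358 were higher (3.66%) and 289 lower (2.96%), and these were not called. An exact two-sided Mann-Whitney test per gene gave 0 calls, with a lowest adjusted p of 0.304. The smallest p this test can give for 7 against 8 tumours is 0.000311, that of genes without overlap such as Nrg4. So few genes reached it that none could pass after adjustment, so its 0 is no independent check. The median difference over all detected genes was 0.01. In 10 genes (0.102%) the groups did not overlap. Of these, 3 were higher in Postn-high tumours (0.0307%), namely Rbpms2, Glcci1 and Trnt1, and 7 were lower (0.0716%), namely Nrg4, Rnase2a, Chn2, Sec11a, Porcn, Spcs2 and Higd2a. Glcci1, Spcs2 and Higd2a were singled out for this after their values were seen.

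Without tumor_9509 and tumor_9514 the same fit called 6 genes lower (0.0614%) and again 0 higher (0%). The 6 were Gal (adjusted p = 0.000705), and Nrg4, Rnase2a, Chn2, Serpina3g and Marveld1, each at an adjusted p of 0.0319. At an unadjusted p under 0.05 it then gave 637 higher (6.51%) and 368 lower genes (3.76%), and 14 higher (0.143%) and 25 lower genes (0.256%) had no overlap. Leaving out single tumours gave 7 lower calls without tumor_9514, 3 without tumor_9500 and 1 without tumor_33, and 0 without any other tumour. In each of these fits the calls were on the lower side only.

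**Figure D2:**
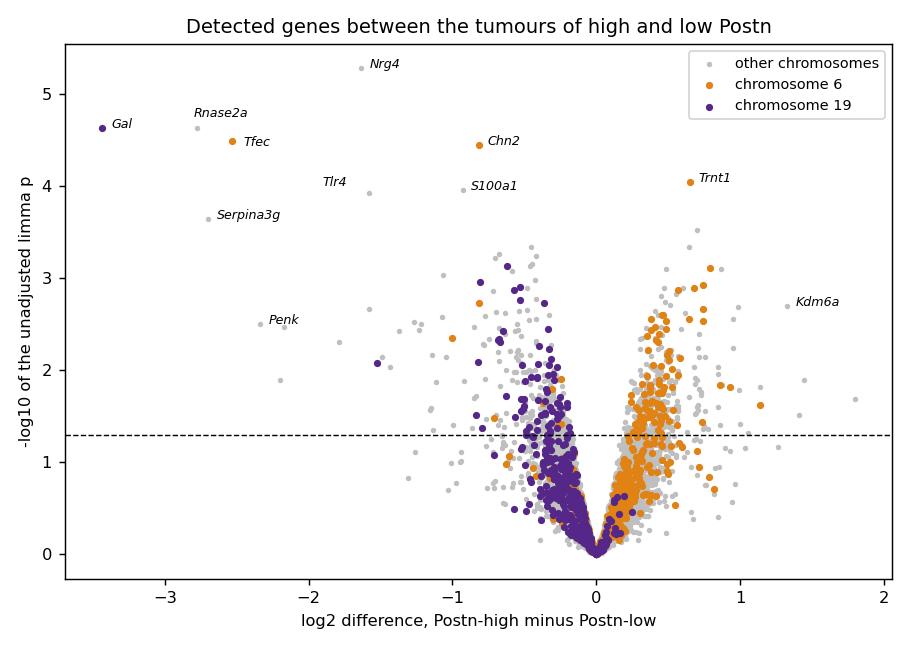
Difference in log2 value between Postn-high and Postn-low tumours (horizontal) against the unadjusted limma p as -log10 (vertical) for detected genes other than Postn, with chromosome 6 in orange and chromosome 19 in purple. The dashed line is p = 0.05; Gal, at a difference of -3.43, lies farthest to the left, and most purple points lie to the left of 0.

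Nrg4, a secreted ligand of the ErbB receptor family read by 10 probesets on chromosome 9, had the lowest p. It ranged from 5.09 through a median of 6.12 to 6.75 in Postn-high tumours, and from 7.15 through 7.81 to 8.18 in Postn-low tumours. Every Postn-low tumour exceeded every Postn-high tumour, and all 10 probesets had a lower mean in the Postn-high group. The means were 6.06 ± 0.62 and 7.69 ± 0.45 (± is the SD throughout), a difference in signal of -1.64, with the Postn-high mean under the detection limit (SE 0.25, limma p = 5.24e-06, adjusted p = 0.0512). The adjusted p ranged from 0.0132 to 1.00 over the alternative settings. Within the 10 tumours with a 4-digit number the difference was -1.53. Within the 5 with a 2-digit number, 3 Postn-high and 2 Postn-low, it was -2.01. Since the groups did not overlap, the sign in any such split was fixed in advance and is no further support.

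Gal, on chromosome 19, encodes galanin, a neuropeptide that is also made by some cells outside the nervous system. Its value was 4.86 at the lowest, 5.41 at the median and 7.20 at the highest in Postn-high tumours, and 5.71, 9.55 and 10.51 in Postn-low tumours. The 2 highest Postn-high values were those of tumor_31 and tumor_33, also the 2 lowest of that group in Postn. Among Postn-low tumours tumor_9514 stood alone at 5.71, with all others at 8.87 or above, so the groups overlapped only through that array. The means were 5.80 ± 0.99, under the detection limit, and 9.23 ± 1.54, a difference in signal of -3.43 (SE 0.60, adjusted p = 0.0691). Without tumor_9509 and tumor_9514 the difference was -3.86, and the adjusted p of 0.000705 given above passed the threshold, against a range of 0.000165 to 1.00 over the alternatives. Within the 4-digit numbers it was -3.73 and within the 2-digit numbers -3.37.

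Penk, the gene of the enkephalin precursor, showed the same direction with more spread. It lay between 6.04 and 8.72, with a median of 6.80, in Postn-high tumours, and between 5.89 and 11.31, with a median of 9.70, in Postn-low tumours. The lowest Postn-low value was again that of tumor_9514. The means were 7.05 ± 0.86 and 9.39 ± 1.88, a difference of -2.34 (SE 0.68, p = 0.00316, adjusted p = 0.439), which did not pass. Without tumor_9509 and tumor_9514 the difference was -2.80 (adjusted p = 0.104), which did not pass either. Of 25 measured neuropeptide, hormone and receptor genes, 10 were detected. At an unadjusted p under 0.05 Gal, Penk and Nmb (neuromedin B) were lower and none was higher, against 2.96% lower and 3.66% higher over all detected genes. The list was chosen with earlier results of these data known, and Gal and Penk were to be named in any case. Its count is thus a description and no further support for either gene. Nmb had means of 6.87 ± 0.18 and 7.35 ± 0.27. The difference was negative in 9 of the 10 members, against 4662 of 9778 genes, with a median of -0.09. The receptors Galr3 (7.61 and 7.63) and Oprd1 (7.37 and 7.45) were detected at nearly equal means, while Galr2, Oprm1 and Oprk1 lay under the limit.

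Serpina3g belongs to a cluster of serine protease inhibitor genes on chromosome 12 whose relatives its 4 probesets may also read. Its values were 5.97, 7.06 and 8.70 (lowest, median and highest) in Postn-high tumours and 7.09, 10.11 and 11.76 in Postn-low tumours. The highest Postn-high values were in tumor_31 and tumor_33, and the lowest Postn-low value was that of tumor_9514. The means were 7.25 ± 1.01 and 9.95 ± 1.47, a difference of -2.70 (SE 0.58, adjusted p = 0.247). Without tumor_9509 and tumor_9514 it was -3.07, with no overlap and the adjusted p of 0.0319 given above, while over the alternatives it ranged from 0.0132 to 1.00. Within the 4-digit numbers the difference was -3.22 and within the 2-digit numbers -1.97.

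Among other protease inhibitors the direction was mixed. Slpi, a secreted inhibitor of neutrophil elastase, had means of 12.91 ± 0.39 in Postn-high and 11.95 ± 0.81 in Postn-low tumours (p = 0.00576). Serpine2, an inhibitor of thrombin and plasminogen activators, had 9.52 ± 0.52 and 8.83 ± 0.52 (p = 0.0122). Both were higher in Postn-high tumours at an unadjusted p, against 3.66% of all genes, with adjusted p of 0.504 and 0.604, so neither was called. Of 12 measured inhibitors 7 were detected, and besides these and Serpina3g none had an unadjusted p under 0.05.

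Rnase2a, listed as Ear11 in the platform annotation, is a member of the eosinophil-associated ribonuclease family, and its 3 probesets may also read relatives. It lay at 4.24, 5.01 and 5.99 (lowest, median and highest) in Postn-high tumours, all under the detection limit, and at 6.30, 7.74 and 10.44 in Postn-low tumours. The groups did not overlap, and the means of 5.14 ± 0.68 and 7.92 ± 1.30 differed in signal by -2.78 (SE 0.48, adjusted p = 0.0691). Tfec (listed as Tcfec) encodes a transcription factor of the MiT family expressed in myeloid cells. Its means were 5.62 ± 0.62, under the limit, and 8.15 ± 1.23, a difference in signal of -2.54 (SE 0.45, adjusted p = 0.0691). Here the overlap came from the Postn-low tumor_9500 at 6.00, and without that tumour the adjusted p was 0.00996, against 0.00996 to 0.755 over the alternatives. Leaving out the tumour whose value disagreed favours a low p, so this is no further support.

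Chn2, the gene of beta-chimaerin, which switches off the GTPase Rac, differed little in size but had little spread. Its 14 probesets gave 6.13, 6.38 and 6.80 (lowest, median and highest) in Postn-high and 6.85, 7.13 and 7.73 in Postn-low tumours. The groups did not overlap, although the lowest Postn-low value was again in tumor_9514. The means of 6.40 ± 0.24, just under the detection limit, and 7.21 ± 0.33 differed in signal by -0.82 (SE 0.15, adjusted p = 0.0691). S100a1, a calcium-binding protein, had means of 9.12 ± 0.47 and 10.05 ± 0.28, or 1.90-fold higher in Postn-low tumours (adjusted p = 0.146). Tlr4, the receptor for bacterial lipopolysaccharide, had means of 5.82 ± 0.66 and 7.41 ± 0.72 (adjusted p = 0.146). In S100a1 the overlap came from tumor_9514 at 9.48, under the Postn-high maximum of 9.59. Without tumor_9509 and tumor_9514 its groups did not overlap, at an adjusted p of 0.104. In Tlr4 the overlap came from tumor_9514 at 6.62 and tumor_9500 at 6.04, under tumor_33 at 6.96.

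The remaining named genes on the lower side had small differences. Sec11a, a subunit of the signal peptidase that trims secreted proteins, had means of 10.28 ± 0.16 and 10.74 ± 0.20, and Spcs2, another subunit of it, 10.81 ± 0.20 and 11.14 ± 0.07. In both the groups did not overlap, at differences of -0.46 and -0.33. Higd2a, an assembly factor of the mitochondrial respiratory chain, differed by -0.45 and Porcn, the acyltransferase of Wnt proteins, by -0.42, also without overlap. Ifitm2 and Gbp6, both genes induced by interferon, differed by -0.67 and -0.71. For Gbp6 this is a difference in signal, with a Postn-high mean of 6.30 under the detection limit. Adjusted p was 0.439 for Spcs2 and 0.369 for the other 5, so these are descriptions of the arrays.

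On the higher side Trnt1, the enzyme that completes the ends of tRNAs, had the lowest p. It was at least 8.22 in Postn-high and at most 8.21 in Postn-low tumours. The means were 8.64 ± 0.27 and 7.99 ± 0.21, a difference of 0.65 or 1.57-fold (SE 0.13, adjusted p = 0.146). The groups thus stood apart by a narrow margin. Msi2, a Musashi RNA-binding protein of blood stem cells, had means of 8.04 ± 0.62 and 7.17 ± 0.20 (adjusted p = 0.369), with tumor_9529 at 8.92, tumor_29 at 8.71 and tumor_33 at 7.08 within the Postn-high group. Rad18, a ubiquitin ligase of DNA damage tolerance, had 8.28 ± 0.48 and 7.60 ± 0.22 (adjusted p = 0.397), and was also highest in tumor_9529 and tumor_29.

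The other 9 genes named on this side were Klhl7, Rbpms2, Gcfc2, 2410004B18Rik, Slc25a13, Pdrg1, Nudcd2, Ttll3 and Atrn. Their differences ran from 0.47 for Nudcd2 to 0.79 for Gcfc2, with adjusted p between 0.291 and 0.414. The Postn-low means of Klhl7 (6.38), Gcfc2 (6.25) and Slc25a13 (6.33) lay under the detection limit, so theirs are differences in signal. Rbpms2, an RNA-binding protein gene, did not overlap between the groups, at 7.19 to 8.19 against 6.44 to 7.09. Slc25a13, the mitochondrial carrier of aspartate and glutamate, had means of 7.07 ± 0.39 and 6.33 ± 0.40. None of the 12 leading genes on this side passed under any of the settings tried. Of these 12, Trnt1, Gcfc2, Slc25a13, Rad18 and Ttll3 lie on chromosome 6.

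**Figure D3:**
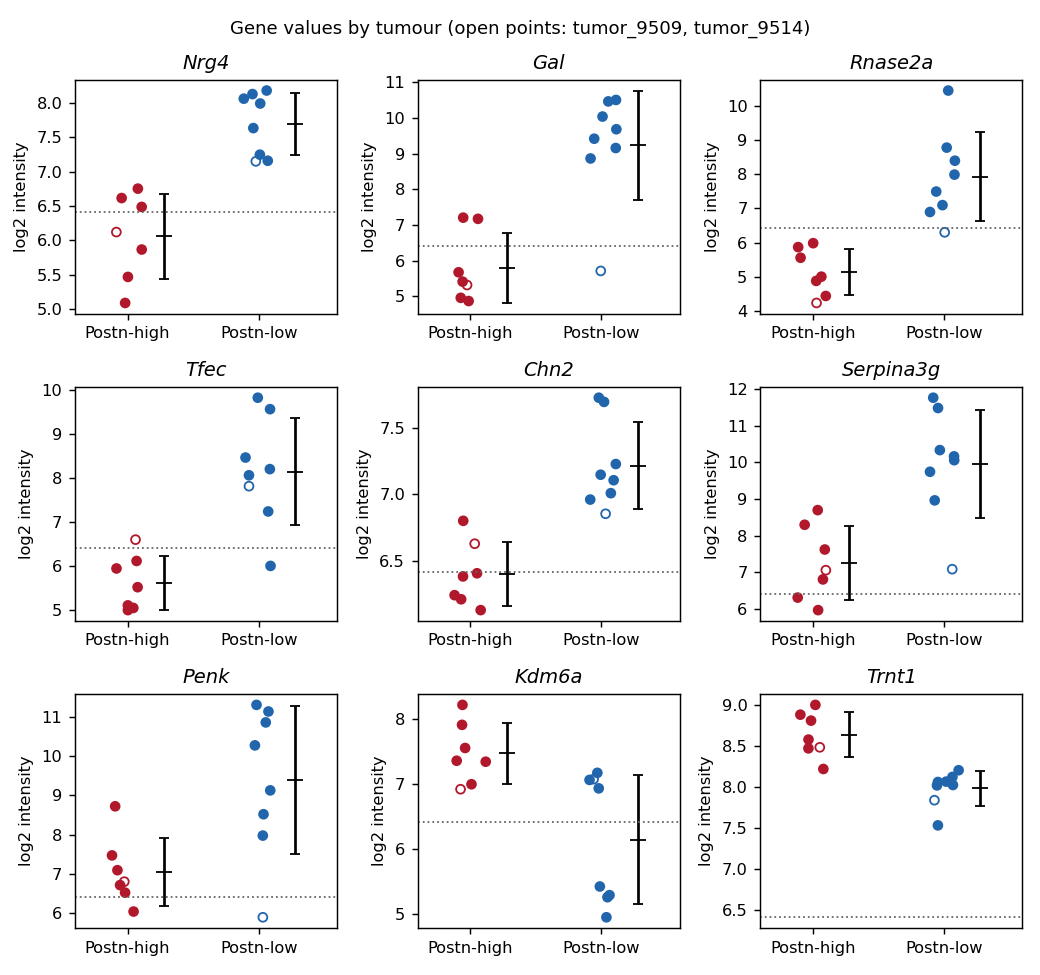
Log2 intensity of 9 genes in each tumour, with Postn-high tumours in red, Postn-low in blue, open points for tumor_9509 and tumor_9514, bars for mean and SD, and a dotted line at the detection limit of 6.41. Nrg4, Rnase2a, Chn2 and Trnt1 show no overlap, and in Gal the open Postn-low point at 5.71 lies apart from the others.

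Genes of chromosome 6 stood higher in Postn-high tumours, and genes of chromosome 19 lower, along the length of both chromosomes. Chromosome 6 had 468 detected genes with a median difference of 0.14, of which 74.6% were positive. At an unadjusted p under 0.05, 88 of them (18.8%) were higher and 10 lower, against 3.66% and 2.96% over all genes. Chromosome 19 had 372 detected genes with a median difference of -0.20, of which 41 were positive, and 70 (18.8%) were lower and 0 higher. These 2 chromosomes held 4.79% and 3.80% of the detected genes, but chromosome 6 held 24.6% of those higher and chromosome 19 held 24.2% of those lower. Over 4 equal blocks of the gene order the median ran from 0.10 to 0.18 on chromosome 6 and from -0.23 to -0.18 on chromosome 19. The other 18 chromosomes had medians between -0.04 and 0.07. These are counts over genes that share their arrays, and no test was made of them.

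The shifts were not shared by all tumours of a group. Each gene was set against its median over the 15 tumours, and a deviation is the median of these differences over a chromosome's genes in 1 tumour, less that over all detected genes. For chromosome 6 they were 0.23 in tumor_9523, 0.21 in tumor_31, 0.21 in tumor_9509, 0.09 in tumor_29, 0.08 in tumor_9529, -0.03 in tumor_9492 and -0.07 in tumor_33. Postn-low tumours lay between -0.08 and -0.01, except for tumor_9514 at 0.13. For chromosome 19 the values were -0.28 in tumor_9492, -0.25 in tumor_9523, -0.24 in tumor_9509, -0.19 in tumor_31, -0.01 in tumor_9529, 0.00 in tumor_29 and 0.01 in tumor_33. Postn-low tumours lay between 0.05 and 0.14, except for tumor_9514 at -0.24. The low chromosome 19 values were thus in 4 of the 7 Postn-high tumours and 1 of the 8 Postn-low tumours, and tumor_9523, tumor_31, tumor_9509 and tumor_9514 had both the high chromosome 6 and the low chromosome 19.

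Without tumor_9509 and tumor_9514 the medians were 0.16 and -0.23. Then 118 of the 468 chromosome 6 genes (25.2%) were higher and 117 of the 372 chromosome 19 genes (31.5%) were lower at an unadjusted p, and chromosome 19 held 10 of the 25 lower genes without overlap. Gal lies on chromosome 19, and Tfec and Chn2 lie on chromosome 6 but differed against its direction. With each chromosome of each tumour centred on its own median, a setting chosen after seeing the data, 6 genes were called lower and 0 higher. They were Chn2, Nrg4, Gal, Rnase2a, Tfec and S100a1, at adjusted p of 0.0160, 0.0160, 0.0238, 0.0238, 0.0373 and 0.0483. This centring also removes shifts of whole arrays, and centring whole arrays on their median called the same genes and Tlr4. What the removal of the chromosome shifts adds was not tested. Over all alternatives the adjusted p of S100a1 ran from 0.0417 and that of Chn2 from 0.0160, both up to 1.00. Whether the chromosome shifts bear on the Postn signal was not tested.

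**Figure D4:**
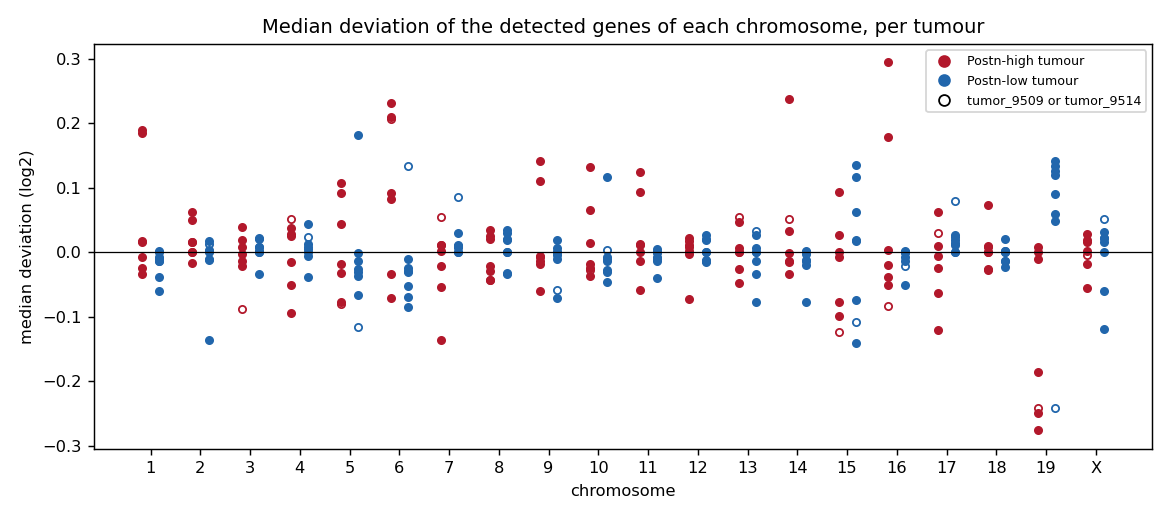
Median log2 deviation of the detected genes of each chromosome in each tumour, with Postn-high tumours in red, Postn-low in blue and open points for tumor_9509 and tumor_9514. On chromosome 6, 3 Postn-high tumours lie at 0.21 or above, and on chromosome 19, 4 lie at -0.19 or below together with the Postn-low tumor_9514.

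Other genes of fibroblasts and matrix did not follow Postn. Of 26 measured genes of the fibroblast and matricellular list, 14 were detected, with a median difference of -0.06 against 0.01 for all genes. The collagen genes Col1a1 (7.42 ± 0.20 and 7.39 ± 0.16) and Col3a1 (6.72 ± 0.13 and 6.77 ± 0.13) had nearly equal means. The fibroblast genes Dcn, Lum, Pdgfra and Fap lay under the limit in both groups, at means of at most 5.37. Thbs1 (thrombospondin, a matricellular protein also stored in platelets) was higher and Loxl1, an enzyme that crosslinks elastin, was lower at an unadjusted p. Thbs1 had means of 8.31 ± 0.46 and 7.56 ± 0.90 (adjusted p = 0.726), but its highest value of all, 9.62, was in the Postn-low tumor_9500. The summed linear intensity of the list lay between 2242 and 2682 in Postn-high and between 2276 and 2753 in Postn-low tumours, so these ranges overlapped almost fully. In whole spleen, fewer cells of a type and less RNA per cell cannot be told apart.

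The integrin chains through which periostin signals gave small differences between the groups, and the binding partners were mixed. Itgav, the alpha-v integrin chain, had means of 7.44 ± 0.33 and 7.48 ± 0.34. Its partners Itgb3 and Itgb5 had differences of 0.05 and -0.23, and Itgb1 had 9.19 in both groups. Notch1, which periostin binds, and Bmp1, a protease that acts with it on collagen crosslinking, differed by -0.03 and -0.13. Tgfbi, the close relative of Postn, had 6.90 ± 0.45 and 7.07 ± 0.43. Of 15 detected members Ccn3 (listed as Nov), a secreted matricellular protein, had an unadjusted p under 0.05, and it was lower in Postn-high tumours.

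Ccn3 lay between 5.25 and 5.98 in Postn-high tumours, all under the limit, and was above it in 5 of the 8 Postn-low tumours, up to 8.80 in tumor_36. The means were 5.71 ± 0.24 and 7.08 ± 1.20 (p = 0.00371, adjusted p = 0.439). Fn1, fibronectin, had a wide spread in Postn-low tumours as well, from 5.94 to 8.67, with the highest value in the same tumor_36 (means 6.20 ± 0.25 and 6.85 ± 0.92, p = 0.0607).

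Genes of the signals known to raise periostin transcription were examined in both pathways. In the transforming growth factor beta list 16 of 23 measured genes were detected, with a median difference of 0.07, and Smad3 and Smad7 were higher at an unadjusted p with none lower, against 3.66% of all genes higher. Smad3, a transcription factor of this pathway, had 7.15 ± 0.23 and 6.86 ± 0.22 (p = 0.0277), and Smad7, its inhibitor, 7.03 ± 0.12 and 6.82 ± 0.18 (p = 0.0478). By probeset, Smad3 had 13 higher and 3 lower in Postn-high tumours, but Smad7 was split almost evenly, with 7 higher and 6 lower. The ligand Tgfb1 had 8.69 ± 0.49 and 8.43 ± 0.28. Of the 16 detected members 12 had a positive and 4 a negative difference. The 2 largest differences pointed in opposite directions. Id1 was lower in Postn-high tumours, at 7.12 ± 0.66 and 7.59 ± 0.65 (p = 0.139), in all 6 of its probesets. Id2 was higher, at 9.92 ± 0.57 and 9.61 ± 0.78 (p = 0.335). Adjusted p was 0.668 and 0.748 for Smad3 and Smad7, and the groups overlapped in both.

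In the type 2 cytokine list 9 of 17 measured genes were detected. The cytokine genes Il4 and Il5 lay under the limit, while Il13 lay just above it at nearly equal means of 6.52 ± 0.23 and 6.46 ± 0.24. The receptor Il4ra had 7.79 ± 0.52 and 8.13 ± 0.42. Retnla, induced by type 2 cytokines in macrophages, ranged from 4.18 to 9.56 within the Postn-high group and showed no separation. Cish and Socs1, feedback inhibitors of cytokine signalling, were lower in Postn-high tumours at an unadjusted p, against 2.96% of all genes. Cish had 6.72 ± 0.26 and 7.26 ± 0.32 (adjusted p = 0.439), Socs1 7.61 ± 0.15 and 7.84 ± 0.16. The list's median difference was -0.23.

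Genes of other cell types in the spleen were compared by counts, since none was called. For eosinophils, basophils and mast cells 9 of 16 measured genes were detected, 8 with a positive difference against 5116 of 9778 genes. The median of 0.52 was the highest of the lists, while Rnase2a, given above and not in the list, was lower in Postn-high tumours. Hdc, which makes histamine, had 9.12 ± 1.20 in Postn-high and 8.12 ± 0.73 in Postn-low tumours, and Siglec5, as the platform lists the gene measured for Siglecf, had 8.85 ± 0.67 and 8.12 ± 0.54. Both were higher at an unadjusted p (0.0382 and 0.0184), against 3.66% of all genes, and not after adjustment (0.723 and 0.657). Prg3, an eosinophil granule protein, ran from 5.92 to 11.11 among Postn-high tumours alone, so the spread inside the group was wider than the difference of 0.94. Cpa3, the detected member with a negative difference, had nearly equal means of 10.61 ± 1.34 and 10.65 ± 0.86. The list's summed intensity ran from 3913 to 17752 in Postn-high and from 2383 to 9799 in Postn-low tumours, and Fcer1a, Ms4a2, Tpsb2 and Cma1 lay under the limit. There the signal was lower in Postn-high tumours for Fcer1a (4.16 and 5.08) and Ms4a2 (5.81 and 6.18). It was higher for Ccr3 (6.15 and 5.64) and Il5ra (4.64 and 4.17), also under the limit.

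Lists of the granulocyte line were read by stage, with no test of a difference between stages. In the primary granule list Ela2 (the platform's symbol for a gene of that list) and Prtn3, a serine protease, were lower in Postn-high tumours at an unadjusted p. That was 2 of 10 members, against 2.96% of all genes. Ela2 had 9.68 ± 1.22 and 10.80 ± 0.41, with a lowest value of 8.56 in tumor_33 and a highest of 11.83 in tumor_9492, both Postn-high. Prtn3 had 8.39 ± 0.34 and 8.85 ± 0.25 (p = 0.00684, adjusted p = 0.524). The other 8 members of that list had an unadjusted p of 0.05 or above, and the median over its 10 members was -0.12, with 4 positive and 6 negative.

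In the mature neutrophil list 14 of 15 members had a positive difference, against 5116 of 9778 genes, with a median of 0.38. At an unadjusted p 2 were higher and 1 lower, against 3.66% and 2.96% of all genes. Retnlg had 12.31 ± 0.26 and 11.68 ± 0.83 (p = 0.0467), and Clec4e, a receptor for mycobacterial lipids, 9.32 ± 0.91 and 8.38 ± 0.58 (p = 0.0151). Il1r2, a decoy receptor that binds inflammatory interleukins, was the exception, at 6.85 ± 0.84 and 7.84 ± 1.08 (p = 0.0397). The list's summed intensity ran from 8352 to 18963 in Postn-high and from 2927 to 17208 in Postn-low tumours, so both groups held tumours of high neutrophil signal. Among secondary granule genes 0 of 14 had an unadjusted p under 0.05; Ltf (lactoferrin) had 10.99 ± 0.77 and 9.96 ± 1.43.

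Granzyme genes were lower in Postn-high tumours at an unadjusted p. They were 2 of the 6 detected members of the natural killer cell list, against 2.96% of all genes lower. Gzma lay at 5.36, 6.75 and 7.80 (lowest, median and highest) in Postn-high and at 7.11, 7.97 and 8.92 in Postn-low tumours (means 6.71 ± 0.80 and 7.95 ± 0.80, p = 0.00368, adjusted p = 0.439). Gzmb had 6.12 ± 0.60 and 6.97 ± 0.81 (p = 0.0202, adjusted p = 0.666). Both encode proteases of cytotoxic lymphocytes. The defining natural killer cell genes Ncr1 and Klrb1c lay under the limit in both groups, at 5.57 and 5.92 for Ncr1 and 4.75 and 4.79 for Klrb1c. The receptor gene Klrd1 had 5.89 and 6.70, above the limit in the Postn-low mean alone, while Klrk1 (4.54 and 5.09), Klre1 (4.12 and 5.07) and Eomes (6.06 and 6.04) lay under it. Prf1 (perforin) had 6.52 and 6.44, and Nkg7, a granule protein, 11.74 and 11.28. The summed intensity of the list ran from 3199 to 5379 in Postn-high and from 1726 to 5339 in Postn-low tumours, and the part of these cells in the granzyme difference was not tested. The T cell gene Cd3g had 7.22 ± 0.55 and 7.53 ± 0.36, and 0 of 11 detected T cell genes had an unadjusted p under 0.05.

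Lists of the remaining cell types gave few genes at an unadjusted p, against 3.66% higher and 2.96% lower over all genes. B cell, megakaryocyte, dendritic cell, red pulp macrophage and endothelial lists gave 0 each, with medians of 0.05, 0.05, 0.11, 0.10 and -0.02. In the monocyte list, with a median of -0.08, Irf8 was lower (6.56 ± 0.18 and 6.80 ± 0.20). In the erythroid list the haemoglobin gene Hbb-b1, with 2 probesets, was higher (11.74 ± 0.73 and 10.75 ± 0.87). All 6 detected erythroid genes had a positive difference, against 5116 of 9778 genes, with a median of 0.23. Without tumor_9509 and tumor_9514 all 6 were still positive, and 2 were higher at an unadjusted p, against 6.51% of all genes. In Hbb-b1 the highest value of each group was that of an array that stood apart, 12.82 in tumor_9509 and 12.46 in tumor_9514. The Y-linked gene Eif2s3y was at 8.95 in tumor_33 and 9.44 in tumor_9500, 1 tumour of each group, and at most at 5.91 in the others. Kdm5d, also Y-linked, was above the limit in these 2 tumours, at 6.82 and 7.09, and in the Postn-low tumor_26 at 7.09.

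**Figure D5:**
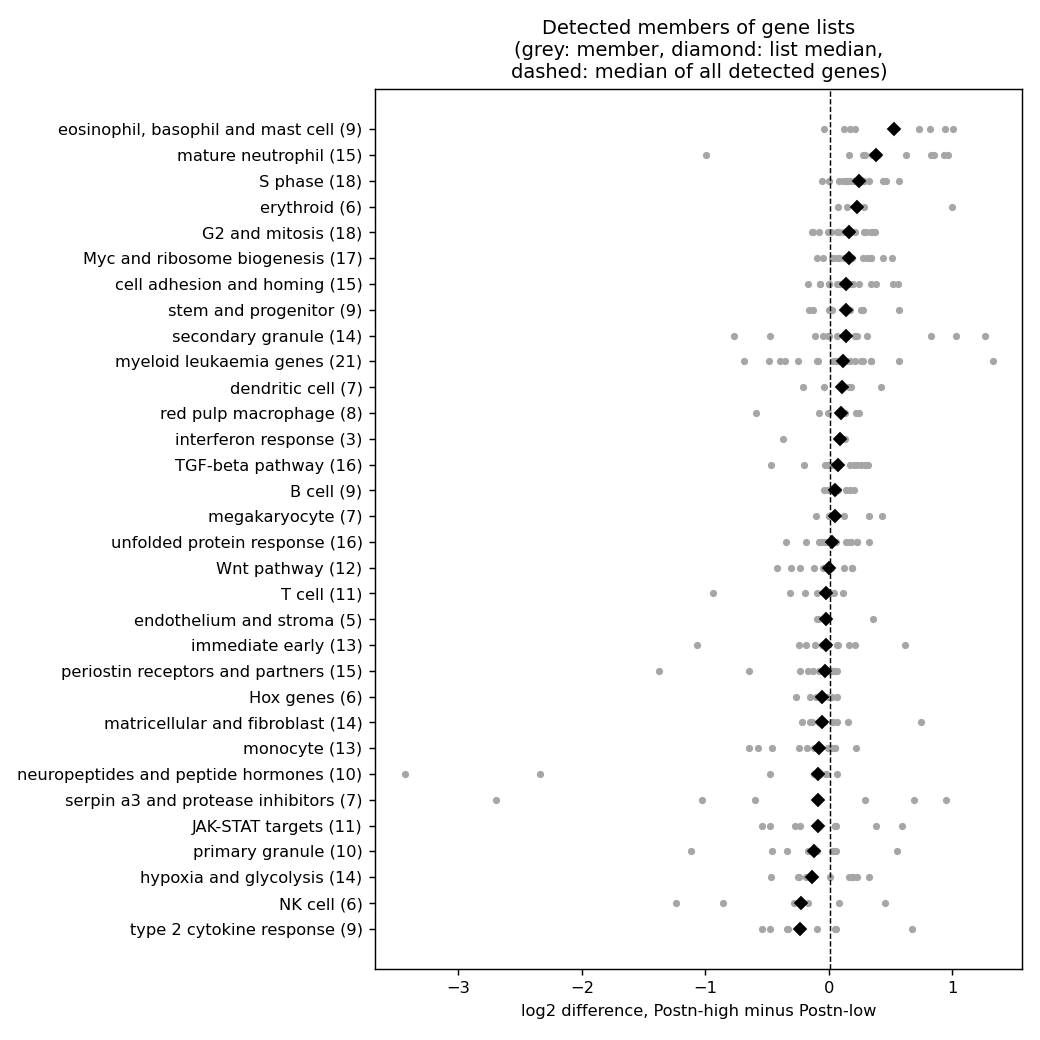
Difference in log2 value between Postn-high and Postn-low tumours (horizontal) for the detected members of each gene list, whose number is in brackets, with grey points for members and a diamond for the list's median. The medians lie between -0.23 and 0.52, while the points of Gal (-3.43), Serpina3g (-2.70) and Penk (-2.34) lie far from the medians of their lists.

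No gene of the cell growth lists was called. In the S phase list 17 of 18 members had a positive difference, against 5116 of 9778 genes, with a median of 0.25. Mcm2, a subunit of the replicative helicase on chromosome 6, was the member with an unadjusted p under 0.05 (8.63 ± 0.60 and 8.06 ± 0.48, p = 0.0397). In the G2 and mitosis list Cenpe and Tpx2, both of the mitotic spindle, were higher at an unadjusted p, against 3.66% of all genes, and the median was 0.16. Ribosome biogenesis genes had a median of 0.16 and 0 of 17 at an unadjusted p under 0.05. Without tumor_9509 and tumor_9514 the higher genes at an unadjusted p were 5 of 18 in the S phase list, 4 of 18 in the G2 and mitosis list and 4 of 17 in the ribosome list, against 6.51% of all genes. In the 2-digit tumours alone the differences were near 0 for Mcm2 (0.11), Mcm3 (-0.044), Top2a (0.033) and Aurka (0.041). Myc itself had 10.80 ± 0.68 and 10.84 ± 0.75, and the sign of that difference turned when single tumours were left out.

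The other lists of signalling and homing genes gave few genes at an unadjusted p, against 3.66% higher and 2.96% lower over all genes. Itgb2, the integrin chain of leukocytes, was higher (8.71 ± 0.54 and 8.15 ± 0.50, p = 0.0335) among 15 detected adhesion and homing genes, whose median was 0.14. In the Wnt list Lrp5, a Wnt co-receptor, and Porcn were lower among 12 detected genes, and in the Hox list Hoxa4 was lower among 6. Of 3 detected interferon response genes the chemokine gene Cxcl10 was lower, and of 11 detected JAK-STAT targets Cish and Socs1, given above, were lower. The largest difference among these targets was positive, in Ccnd2 (8.61 ± 0.94 and 8.01 ± 0.23, p = 0.0687). Without tumor_9509 and tumor_9514, 2 of the 11 were higher and 2 lower, against 6.51% and 3.76% of all genes. Hypoxia and glycolysis genes gave 0 of 14, with a median of -0.14.

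Of the immediate early genes Ier3 and Egr2 pointed in opposite directions. Ier3, a stress response gene, had 8.62 ± 0.73 in Postn-high and 9.69 ± 0.59 in Postn-low tumours (p = 0.00262), and Egr2, a transcription factor, 7.29 ± 0.37 and 6.68 ± 0.33 (p = 0.00237). Both had an adjusted p of 0.439. Within the 2-digit tumours the difference in Ier3 had the other sign, at 0.14. Xbp1, the transcription factor of the unfolded protein response, was lower at an unadjusted p (8.61 ± 0.30 and 8.96 ± 0.24), and the other 15 members of its list had none under 0.05.

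Among 22 measured genes recurrently altered in myeloid leukaemia, 21 were detected. Kit, Kdm6a and Ezh2 were higher and Jak2 and Runx1 lower in Postn-high tumours at an unadjusted p, against 3.66% and 2.96% of all genes, and none was called. Without tumor_9509 and tumor_9514 the counts were 5 higher and 3 lower of 21. Kdm6a, an X-linked gene of a histone demethylase (listed as Utx, 34 probesets), had its lowest value, 4.94, in tumor_9500. With tumor_26 at 5.25, tumor_9495 at 5.28 and tumor_9520 at 5.42 this made 4 tumours under the limit, all Postn-low, while the other Postn-low tumours lay between 6.93 and 7.17 and the Postn-high tumours between 6.92 and 8.22. The Postn-low mean of 6.14 lay under the limit, and the difference in signal was 1.33 (SE 0.37, adjusted p = 0.439).

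Runx1, a transcription factor of blood formation, lay lower in Postn-high tumours, with a median of 8.28 against 9.01 (p = 0.00632), and 10 of its 12 probesets shared the direction. Kit, the receptor of stem cell factor, had 9.13 ± 0.53 and 8.56 ± 0.44 (p = 0.0242), and was highest in tumor_29 (9.98) and tumor_9529 (9.67). Ezh2, a histone methyltransferase on chromosome 6, had 9.29 ± 0.21 and 8.95 ± 0.30 (p = 0.0219). Jak2, a cytokine receptor kinase on chromosome 19, had 6.77 ± 0.56 and 7.25 ± 0.40 (p = 0.0457). The last 2 differed in the direction of their chromosomes' medians. Pml, Rara and Jak1 had differences of 0.12, -0.25 and 0.14, each smaller than the SD within either group.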

How the data were processed

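RNA of 15 APL spleens was amplified and read on exon arrays (Affymetrix Mouse Exon 1.0 ST). The deposited values are linear intensities per probeset. The authors' use of RMA and genome build mm9 is per the submitters' processing notes, without versions or parameters. Intensities ran from 2.38 to 19380.5, and the number of arrays limits the precision. No pair of arrays held identical values (0 pairs).

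Here the log2 of each intensity was taken. Of 229581 probesets, 208397 carried 1 gene symbol, 3965 several and 17219 none in the platform annotation, and those with several or none were not used. A gene value was the median over its probesets. Of 16299 symbols, 14132 were current, 2099 were renamed through the reference gene table and 68 were unmatched. The 9779 genes with a mean over all tumours above the 40th percentile counted as detected, and Postn was left out of the tests. The groups were formed from the Postn value, not from the labels. They were compared with limma 3.58.1 (lmFit and eBayes, R 4.3.3) and Benjamini-Hochberg adjustment, at an adjusted p under 0.05. On data simulated for this comparison over 9778 genes, the fit called 88% of 100 genes given a change of 1 on the log2 scale and 99% of 100 given a change of 2, with 7 other calls. The simulated noise was independent for each gene, without the shifts that real arrays and chromosomes share, and many genes were changed at once. These shares are therefore not the power of the real comparison, in which Gal, at a difference of -3.43, was not called.

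Named genes had at least 3 probesets. They were the 12 per direction with the largest difference among called genes, filled by the smallest p where fewer were called, the 2 members per list with the largest absolute difference, and Postn, Gal, Penk, Serpina3g, Kdm6a, Jak1, Pml, Rara, Kit, Myc, Mpo and Tgfbi. Other list members, including Hbb-b1 with 2 probesets, were named after their values were seen, because of their p or their role. The groups, members and lists were chosen with earlier results of these data known. Lists and chromosomes are described by counts and medians, with no test. Alternatives changed the gene value, the filter, the normalization, the test, the grouping and the tumours used. Promoters are from RefSeq (GRCm38.p6). Tables and plots used Python 3.11.15, numpy 2.4.6, pandas 2.3.3 and matplotlib 3.10.9.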

Additional observations from a re-analysis of the deposited data

Results flagged for a closer look

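In 14 of 186 sets of values, each from 1 group of tumours, the highest or lowest tumour lay far from the others by Dixon's criterion, which chance meets in about 1 in 20. Of these, 6 were values of tumor_9514 and 2 of tumor_9509.

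In tumor_9514, against the other Postn-low tumours, Gal was 5.71 (nearest other 8.87), Myc 9.15 (10.51) and Aurka, a mitotic kinase, 7.19 (8.04). The same tumour stood apart in its deviation of chromosome 6 at 0.13 (nearest other -0.01) and of chromosome 19 at -0.24 (0.05). The median log2 value over detected genes was 7.33 in tumor_9514 (nearest other 7.60) and 7.30 in tumor_9509 (7.58), and Lrp5, a Wnt co-receptor, was 6.52 in tumor_9509 (6.99).

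Thbs1 was 9.62 in tumor_9500, against 7.70 in the next Postn-low tumour. Rara, a retinoic acid receptor gene, was 8.83 in tumor_31 among Postn-high tumours (nearest other 7.79) and 8.71 in tumor_9500 among Postn-low tumours (7.92). Adgre1, a macrophage surface gene, was 9.08 in tumor_33 (7.15), Irf1, an interferon-response transcription factor, was 7.34 in tumor_31 (6.76), and Rbpms2 was 8.19 in tumor_9523 (7.45).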

How the results depend on the processing

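No gene was called higher in Postn-high tumours under any alternative tried (0 in each). The count of genes called lower, 0 in the main comparison, was 1 with the mean over probesets, 2 with probesets above the 25th percentile, 7 with arrays centred on their median, 5 with quantile normalization, 6 without tumor_9509 and tumor_9514, 2 in 4-digit tumours alone and 1 with robust and trended limma. It was 0 with no filter, with the 60th percentile filter, with the tumour number as a block and in 2-digit tumours alone. The Mann-Whitney test also gave 0, within the limit on its p given above. A fit of slopes on the Postn level, which reads the values that set the groups and is not the group comparison, gave 12. Of the alternatives chosen after seeing the data, which include the 2-digit tumours alone, quantile normalization without tumor_9509 and tumor_9514 gave 5 and centring each chromosome gave 6. Leaving out single tumours gave 0 to 7. The 358 genes higher at unadjusted p under 0.05 became 637 without that pair, 197 in 2-digit tumours alone and 231 (without tumor_9529) to 805 (without tumor_9509) when single tumours were left out. The 289 genes lower at unadjusted p under 0.05 became 514 with no filter, 176 with a 60th percentile filter, 523 with quantile normalization without the pair, 105 in 2-digit tumours alone, and 236 (without tumor_9509) to 477 (without tumor_9514). Higher genes were 55.3% of these, 77.3% without tumor_9509 and 40.4% without tumor_9514. In 2-digit tumours alone the difference reversed for Id1 (0.10), Thy1 (0.025), Slc4a1 (-0.26), Bst2 (0.52), Adgre1 (0.43), Pecam1 (-0.071), Eng (0.14), Mcm3 (-0.044), Ier3 (0.14), Myc (0.36), Mpo (-0.12) and Tgfbi (0.32). Leaving out single tumours moved Myc between -0.29 and 0.17 and Mpo between -0.032 and 0.11. The causes were not tested. No paired analysis was possible because the labels give 1 group and no replicate numbers shared between groups. Signals near background and probesets that may read related genes limit single values.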
